A study of Mus musculus with 6 samples.

Results

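Aminoacyl-tRNA synthetases load each amino acid onto its own transfer RNA, the step that gives the genetic code its meaning during translation. The genes described here were chosen by name, as a mouse symbol of 1 capital letter followed by ars with an optional 1 or 2, together with Eprs, Farsa and Farsb. Lars2 was left out because it carries reads that resemble ribosomal RNA. This gave 36 genes of 39179 in the count files, 20 for cytosolic and 16 for mitochondrial enzymes. They were followed in 6 liver samples of C57BL/6J mice, per the labels' protocols. These mice ate a diet with 60% of calories from fat for 21 weeks from 5 weeks of age. The obese animals were sorted by liver histology into isolated steatosis, in which hepatocytes store fat (3 libraries), and nonalcoholic steatohepatitis (NASH), in which inflammation and cell injury are added (3 libraries). All 6 samples shared strain and diet, and no lean group was analysed here, so the comparison is between histological classes of obese mice. Libraries were made from polyadenylated RNA of whole liver, so fewer cells of a type and less RNA per cell cannot be told apart.

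In the cytosol, 8 of the synthetases (Dars, Eprs, Iars, Kars, Lars, Mars, Qars and Rars) belong to the multisynthetase complex, held together by the scaffold proteins Aimp1, Aimp2 and Eef1e1, and the other 12 work outside it. Eprs charges both glutamate and proline, Farsa and Farsb are the subunits of the phenylalanine enzyme, and Gars and Kars also serve mitochondria. The mitochondrial enzymes are encoded in the nucleus, are imported and charge the transfer RNAs that translate the mitochondrially encoded respiratory subunits. In cultured mouse cells short of amino acids or under stress of the endoplasmic reticulum, the transcription factor ATF4 raises many of the cytosolic synthetase genes.

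Short stretches of promoter are shown first. They were chosen with the comparison below already seen, in which genes known as ATF4 targets tended to stand above 0. Whether a motif goes with a change in NASH was not tested. RefSeq promoters of build GRCm38.p6, 250 bases before to 50 after a start site, matched 26 of the 36 genes, 25 by symbol and Mars by a synonym. Of the cytosolic genes Cars, Hars, Lars, Nars, Rars, Vars and Wars were not matched, so the motif was not searched in them. The motif TGATGNAA, the core of the element that ATF4 binds with C/EBP proteins, was searched on both strands as the only motif. It was present in 5 of 13 cytosolic genes with a promoter, in 0 of 13 mitochondrial genes and in 3.97% of all 32851 promoters. The 5 genes were Aars, Gars, Iars, Tars and Yars, which did not pass the edgeR test described below. A match is a run of letters and not a measured site. Each line gives 1 match in 30 bases, 5′ to 3′ on the strand of the gene, with the motif in capitals, and where the motif lies on the opposite strand its reverse complement is capitalised.
Aars, chr8:111033840-111033869, plus strand, motif from base 10 after the start: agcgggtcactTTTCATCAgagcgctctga
Gars, chr6:55037960-55037989, plus strand, motif from base -30: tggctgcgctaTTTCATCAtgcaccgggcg
Iars, chr13:49682126-49682155, plus strand, motif from base 8 after the start: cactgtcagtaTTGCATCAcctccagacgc
Tars, chr15:11399655-11399684, minus strand, motif from base -15: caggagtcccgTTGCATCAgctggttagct
Yars, chr4:129189895-129189924, plus strand, motif from base 4 after the start: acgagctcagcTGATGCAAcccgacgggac

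The 250 bases before the start are given for Tars, whose NASH libraries all lay above the steatosis libraries and which holds the motif, and for Cars2, whose libraries were ordered in the same way and which does not hold it.
Tars, chr15:11399659-11399908, minus strand: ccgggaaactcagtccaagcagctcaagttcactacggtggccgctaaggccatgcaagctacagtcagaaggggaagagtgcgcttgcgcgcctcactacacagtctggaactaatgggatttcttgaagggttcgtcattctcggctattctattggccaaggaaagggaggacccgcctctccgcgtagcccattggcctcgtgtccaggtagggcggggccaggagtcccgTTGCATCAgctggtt
Cars2, chr8:11550772-11551021, minus strand: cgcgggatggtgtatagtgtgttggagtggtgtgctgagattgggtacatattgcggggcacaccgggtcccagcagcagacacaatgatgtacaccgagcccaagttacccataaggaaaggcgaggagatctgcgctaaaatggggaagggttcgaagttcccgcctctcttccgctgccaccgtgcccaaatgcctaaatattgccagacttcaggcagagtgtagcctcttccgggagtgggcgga

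Libraries held between 13909238 and 18002095 counts, of which 62.0% to 83.9% came from mitochondrially encoded genes. Loci with sequence like ribosomal RNA took 22.3% of NASH 3 and 8.96% of steatosis 2 but at most 1.06% of the other libraries, and Lars2 alone held 284894 and 118112 counts in those libraries against 10479 to 17587 in the others. The 36 synthetase genes together held 3681 to 8277 counts per library. Levels are CPM, counts relative to a library size scaled by TMM factors, and levels of different genes are compared only per kb of the principal transcript. Of the hepatocyte markers Alb, Apoa1, Ttr, Serpina1a, Cps1 and Hnf4a, all were detected, at a summed 10184 to 11457 CPM in steatosis and 8579 to 10976 CPM in NASH. The summed levels of Kupffer cell markers were 23.9 to 32.8 and 21.9 to 54.4 CPM, of stellate cell markers 45.2 to 56.7 and 27.5 to 38.5 CPM and of sinusoidal endothelial markers 24.1 to 33.3 and 29.6 to 47.2 CPM in steatosis and NASH. Of the 5 stellate cell markers only Dcn was without overlap, at 22.0 to 23.6 CPM in steatosis and 7.62 to 13.5 CPM in NASH. Col1a1 and Col3a1 had lower means in NASH and Lrat and Des higher ones, all with overlapping groups. Of the 4 adipocyte markers Cfd was at 33.7 to 127 CPM in steatosis and 11.7 to 41.1 CPM in NASH, while Adipoq and Lep had 0 counts in all 6 libraries and Retn at most 1. Those of recruited macrophages (5.71 to 7.96 CPM), neutrophils (0.334 to 1.18 CPM), lymphocytes (0.778 to 2.10 CPM), cholangiocytes (1.72 to 3.47 CPM) and exocrine pancreas (0.803 to 2.57 CPM) were low throughout, and 3 of 5 pancreatic markers had 0 counts in all 6 libraries. The part of these differences in the results on synthetases was not tested.

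Per kb of transcript, Aars, the alanine enzyme, had the highest level of the 36 genes, at 9.10 ± 0.872 CPM per kb (SD, n = 6 libraries). It was followed by Farsa (6.76 ± 1.02), Cars of cysteine (5.93 ± 2.68) and Tars2 (5.45 ± 0.968), the mitochondrial threonine enzyme and the highest of its compartment. The ranges over the 6 libraries overlapped between neighbours all the way down this order to Wars2, the mitochondrial tryptophan enzyme at 0.412 ± 0.104 CPM per kb, so that the rank of single neighbours was not resolved. Only Pars2 and Mars2, for proline and methionine in mitochondria, stood apart at the bottom, at 0.154 ± 0.0447 and 0.0327 ± 0.0132 CPM per kb. The median level was 3.81 CPM per kb over the cytosolic and 1.69 CPM per kb over the mitochondrial genes. In 14 of 17 cytosolic and mitochondrial pairs for the same amino acid the cytosolic gene had the higher level. The exceptions were Hars, Iars and Tars, for histidine, isoleucine and threonine, at 0.532, 0.353 and 0.769 times the level of the mitochondrial partner. The level per kb depends on which transcript is taken as the principal one, and that of Mars2 was 11294 bases long.

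**Figure D1:**
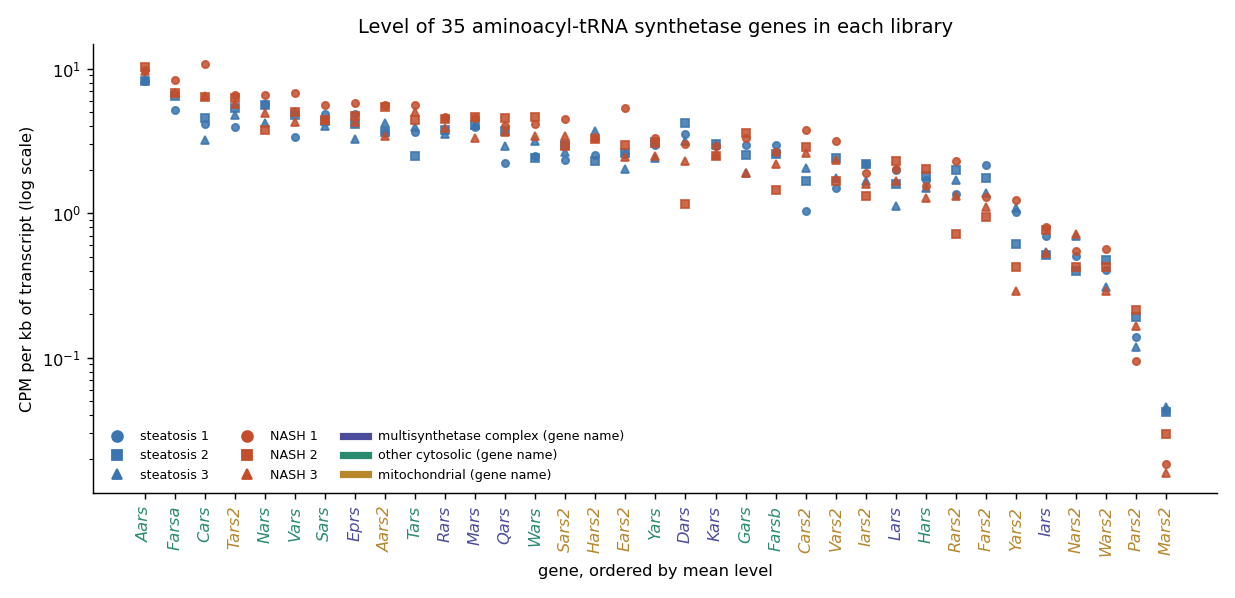
Level of 35 of the 36 synthetase genes in each of the 6 libraries, in CPM per kb of the principal transcript on a log axis, with genes ordered by their mean and gene names coloured by compartment. Aars stands highest at a mean of 9.10 CPM per kb, and Pars2 and Mars2 lie below all others.

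The comparison of NASH with steatosis asks whether the genes for charging transfer RNA differ between livers with fat alone and livers with steatohepatitis. A single gene passed the test. Cars, which charges cysteine in the cytosol, rose in NASH by 0.99 on the log2 scale (SE 0.25), and its mitochondrial counterpart Cars2 had a log2 fold change of 0.95 (SE 0.28) that did not pass. Most of the other synthetases leaned the same way by small amounts, 25 of 34 tested genes having a log2 fold change above 0, against 50.6% of all 11375 tested genes. With upper-quartile factors, or with library sizes of the other genes, it was 27 of 34, because Hars and Nars moved just above 0. The share over all genes was taken with TMM factors only, and in these other scalings the median of all genes also moved up, to 0.05 and 0.12. With TMM factors the median log2 fold change was 0.25 over the 20 cytosolic and 0.24 over the 14 tested mitochondrial genes, against 0.01 over all tested genes. Fit on the whole table by edgeR's quasi-likelihood test, with p-values adjusted over all 11375 genes by the Benjamini-Hochberg method and a call at an adjusted p under 0.05, 1 of 34 synthetase genes was higher and 0 were lower. Over all tested genes 4.82% were called, 1.49% higher and 3.33% lower, so 1 of 34 is close to that background. At an unadjusted p under 0.05 there were 4 higher and 2 lower synthetase genes, where the share over all genes was 10.2% higher and 12.9% lower. For 8 of these 34 genes every NASH library lay on 1 side of every steatosis library (6 higher and 2 lower), against 29.3% of all tested genes (13.1% higher and 16.2% lower). DESeq2 also called 1 higher and 0 lower, and limma-voom 0 in either direction. Pars2 and Mars2 had too few counts to be tested.

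**Figure D2:**
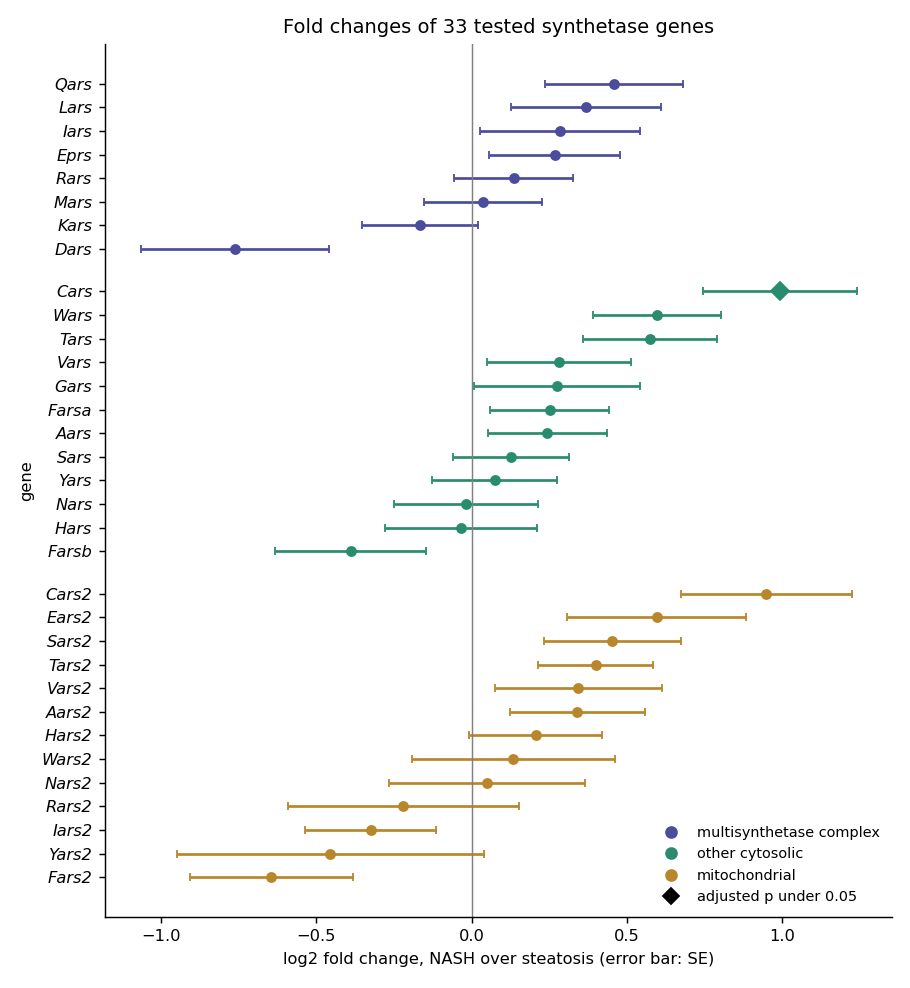
Log2 fold change of NASH over steatosis with its standard error for 33 of the 34 tested synthetase genes, grouped by compartment. Cars (0.99) is marked as the gene called at an adjusted p under 0.05, Cars2 (0.95) is next, and Dars (-0.76) and Fars2 (-0.64) lie lowest.

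Cars lies on chromosome 7 (GRCm38 chr7:143557230-143600090, minus strand). Its level was 13.4, 14.7 and 10.4 CPM in steatosis 1, 2 and 3 and 34.6, 20.7 and 21.0 CPM in NASH 1, 2 and 3. The NASH libraries all lay above the steatosis libraries, and NASH 1 stood well above the other NASH values. The group means of 12.8 ± 2.18 and 25.4 ± 7.92 CPM (SD over 3 libraries each) differed at an edgeR adjusted p = 0.0482. The call was lost when any 1 of the 6 libraries was left out (edgeR adjusted p = 0.0624 to 0.131), and without NASH 1 the log2 fold change was 0.71. Cars shares 211 bases of exon with the pseudogene Gm15580 on the opposite strand, which had 0 counts in all 6 libraries.

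Cars2 (chr8:11513977-11550783, minus strand) is the mitochondrial cysteine enzyme, and in mammals it is also known to make cysteine persulfides. It stood at 1.97, 3.17 and 3.89 CPM in steatosis and at 7.15, 5.48 and 4.99 CPM in NASH. Its groups did not overlap either, and NASH 1 was again the highest library. The group means were 3.01 ± 0.971 and 5.87 ± 1.13 CPM (SD over 3 libraries each), with an edgeR adjusted p = 0.0761. Cars2 shares 422 bases of exon with Naxd on the opposite strand. Naxd, which repairs hydrated forms of NADH, was itself at a log2 fold change as small as 0.05, with an adjusted p of 0.889 by edgeR.

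Of the other cytosolic enzymes outside the complex, Wars and Tars came next. Wars (chr12:108860030-108894174, minus strand), the tryptophan enzyme and in human and mouse cells a gene that interferon gamma raises, was at 4.55, 4.43 and 5.74 CPM in steatosis and 7.57, 8.49 and 6.26 CPM in NASH. Tars (chr15:11382301-11399665, minus strand), the threonine enzyme whose promoter is printed above, was at 14.5, 9.997 and 15.9 CPM in steatosis and 22.5, 17.6 and 20.2 CPM in NASH. Both were without overlap between the groups. Neither passed: by edgeR the log2 fold change of Wars was 0.60 with an SE of 0.21 and an adjusted p of 0.117, and that of Tars was 0.57 with an SE of 0.22 and an adjusted p of 0.144.

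Aars, the most abundant of the family, had closely spaced libraries within each group. It was at 47.6, 47.3 and 48.8 CPM in steatosis and 56.1, 58.9 and 55.2 CPM in NASH, without overlap. The difference was small, at 0.24 on the log2 scale with an SE of 0.19, and did not pass edgeR's test (adjusted p = 0.483). Part of its exons, 1403 bases, is shared with Exosc6 on the same strand and a microRNA gene on the opposite strand. The remaining genes of this group had log2 fold changes of 0.28 for Vars of valine, 0.28 for Gars of glycine, 0.25 for Farsa, 0.13 for Sars of serine, 0.07 for Yars of tyrosine, -0.02 for Nars of asparagine, -0.03 for Hars of histidine and -0.39 for Farsb, those of Nars and Hars changing sign under these other scalings. Hars and Hars2 share 195 bases of exon on opposite strands. Farsa and Farsb, whose proteins form 1 enzyme in equal parts, thus had estimates of opposite sign, and neither passed (edgeR adjusted p = 0.472 and 0.374).

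**Figure D3:**
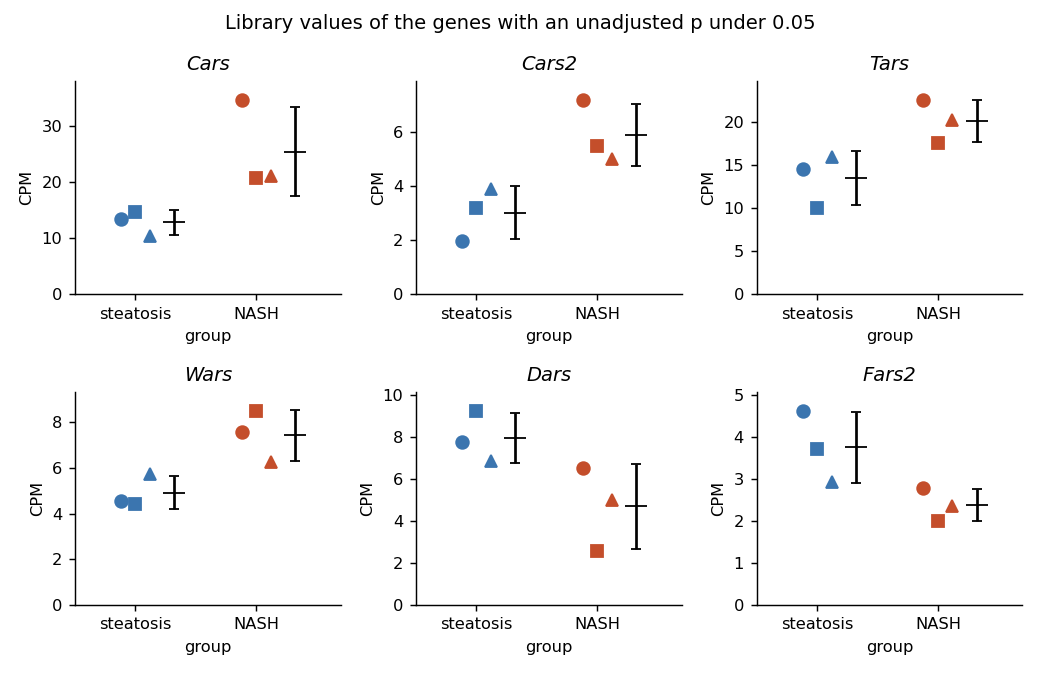
CPM of the 6 synthetase genes with an unadjusted p under 0.05 in each library (circle, square and triangle for replicates 1, 2 and 3, blue for steatosis and red for NASH), with the mean and SD of each group beside the points. The groups do not overlap in any of the 6, with Cars, Cars2, Tars and Wars higher and Dars and Fars2 lower in NASH.

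Among the 8 genes of the multisynthetase complex 0 passed by edgeR, DESeq2 or limma-voom, and 1, which was lower, had an unadjusted p under 0.05. That gene was Dars (chr1:128363707-128417368, minus strand), which charges aspartate. It was at 7.75, 9.22 and 6.86 CPM in steatosis and 6.52, 2.54 and 4.99 CPM in NASH. The groups did not overlap, but NASH 1 was close to the lowest steatosis library and NASH 2 far below. By edgeR the log2 fold change of Dars was -0.76 with an SE of 0.30 and an adjusted p of 0.165, and without NASH 2 it was -0.44. The other members of the complex had log2 fold changes of 0.46 for Qars of glutamine, 0.37 for Lars of leucine, 0.28 for Iars of isoleucine, 0.27 for Eprs, 0.14 for Rars of arginine, 0.04 for Mars of methionine and -0.17 for Kars of lysine. Mars shares 68 bases of exon with Ddit3 on the opposite strand. Ddit3, which encodes the stress factor CHOP, had 416 and 390 counts in NASH 1 and 2 but 49 in NASH 3, while Mars had 192, 203 and 107 counts in the same libraries.

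The scaffolds of the complex did not pass the test. Log2 fold changes were -0.26 for Aimp1 and -0.50 for Eef1e1 (adjusted p = 0.456 and 0.505 by edgeR), and Aimp2 was too low to be tested, at 0.359 to 0.902 CPM in the 6 libraries. The estimates of Aimp1 and Eef1e1 differed in sign from most of the synthetases in the complex, a difference that was not tested. Aimp2 averaged 0.461 CPM in steatosis and 0.622 CPM in NASH, with overlapping groups.

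In mitochondria 0 of the 14 tested genes passed by edgeR, DESeq2 or limma-voom, while 1 higher (Cars2) and 1 lower (Fars2) had an unadjusted p under 0.05. Fars2 (chr13:36117412-36726280, plus strand), the mitochondrial phenylalanine enzyme, was at 4.61, 3.71 and 2.93 CPM in steatosis and 2.78, 2.01 and 2.36 CPM in NASH. The groups did not overlap, though steatosis 3 and NASH 1 were close. By edgeR the log2 fold change of Fars2 was -0.64 with an SE of 0.26 and an adjusted p of 0.175, and 616 bases of its exons are shared with Lyrm4 and Nrn1 on the opposite strand. Tars2 was at 9.54, 12.9 and 11.5 CPM in steatosis and 15.7, 15.2 and 13.8 CPM in NASH, without overlap. By edgeR Tars2 stood 0.40 higher on the log2 scale, with an SE of 0.18 and an adjusted p of 0.225.

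The other mitochondrial genes had overlapping groups where they were tested. Log2 fold changes were 0.60 for Ears2, which charges glutamate, 0.45 for Sars2, 0.34 for Vars2, 0.34 for Aars2, 0.21 for Hars2, 0.13 for Wars2, 0.05 for Nars2, -0.22 for Rars2, -0.32 for Iars2 and -0.45 for Yars2. Ears2 owed its estimate mostly to NASH 1, at 10.9 CPM against 6.09 and 4.99 CPM in NASH 2 and 3 and 4.11 to 5.33 CPM in steatosis, and without NASH 1 it was 0.19. Yars2 was the least certain (SE 0.49), resting on 26, 16 and 46 counts under steatosis against 28, 10 and 5 under NASH. Its log2 fold change was -1.31 without NASH 1 and -0.13 without NASH 3. That of Rars2 was -0.75 without NASH 1 and 0.14 without NASH 2. Of the genes that were not tested, Mars2 had 8, 8 and 14 counts under steatosis against 3, 5 and 2 under NASH, and Pars2 5, 7 and 7 against 3, 7 and 4.

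Set side by side, the cytosolic and mitochondrial genes for 1 amino acid had estimates of the same sign in 8 of 15 tested pairs, with Farsa and Farsb each paired with Fars2, and in 10 of 15 with upper-quartile factors or library sizes of the other genes. In 7 pairs both stood above 0, and the cysteine pair, with 0.99 and 0.95, was farthest from 0. The threonine pair had 0.57 and 0.40 and the serine pair 0.13 and 0.45. Signs were opposite for isoleucine, at 0.28 for Iars and -0.32 for Iars2. Differences within pairs were not tested.

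**Figure D4:**
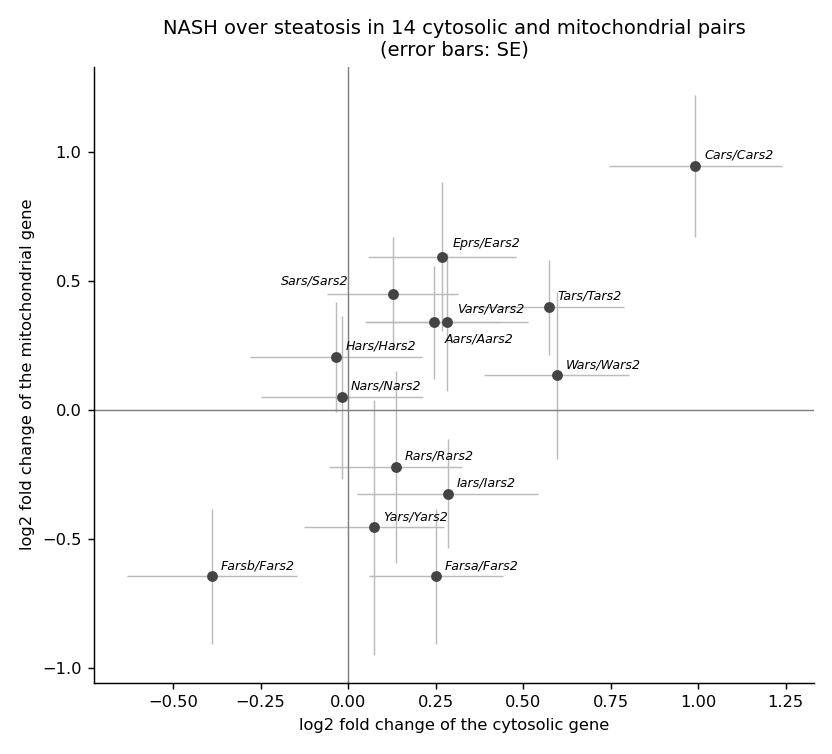
Log2 fold change of NASH over steatosis of the mitochondrial gene against that of the cytosolic gene for 14 of the 15 pairs serving the same amino acid, with standard errors. Cars/Cars2 lies at the upper right at 0.99 and 0.95, and 8 of these 14 pairs have the same sign on both axes.

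Summed over the 20 cytosolic genes, the level was 238, 238 and 224 CPM in steatosis and 315, 268 and 249 CPM in NASH, without overlap. The 16 mitochondrial genes summed to 76.5, 84.7 and 83.1 CPM in steatosis and 114, 87.5 and 84.5 CPM in NASH, and here NASH 3 lay just below steatosis 2. The means were 1.19 and 1.17 times as high in NASH as in steatosis. The cytosolic sums stayed without overlap with Cars left out, at 213 to 224 CPM in steatosis and 228 to 281 CPM in NASH. The ratio of the cytosolic to the mitochondrial sum averaged 2.87 ± 0.212 over the steatosis and 2.93 ± 0.154 over the NASH libraries (SD of 3), a difference smaller than the spread. Relative to all counts outside mitochondrially encoded and ribosomal RNA-like loci, with no TMM scaling, the 36 genes took 0.142%, 0.160% and 0.161% in steatosis and 0.228%, 0.196% and 0.168% in NASH.

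NASH 1 carried much of this shift. It was the highest of the 6 libraries for 20 of the 34 tested genes and the lowest for 0, whereas over all tested genes it was highest for 18.5% and lowest for 16.1%. NASH 3 was highest for 1 and lowest for 6 of the 34, or 2.94% and 17.6%, against 16.7% and 17.5% of all tested genes. Without NASH 1 the median log2 fold change was 0.11 over the cytosolic and 0.14 over the mitochondrial genes, with 23 of 34 above 0. Without steatosis 3 the cytosolic median was 0.14, and without NASH 3 the mitochondrial median was 0.36.

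**Figure D5:**
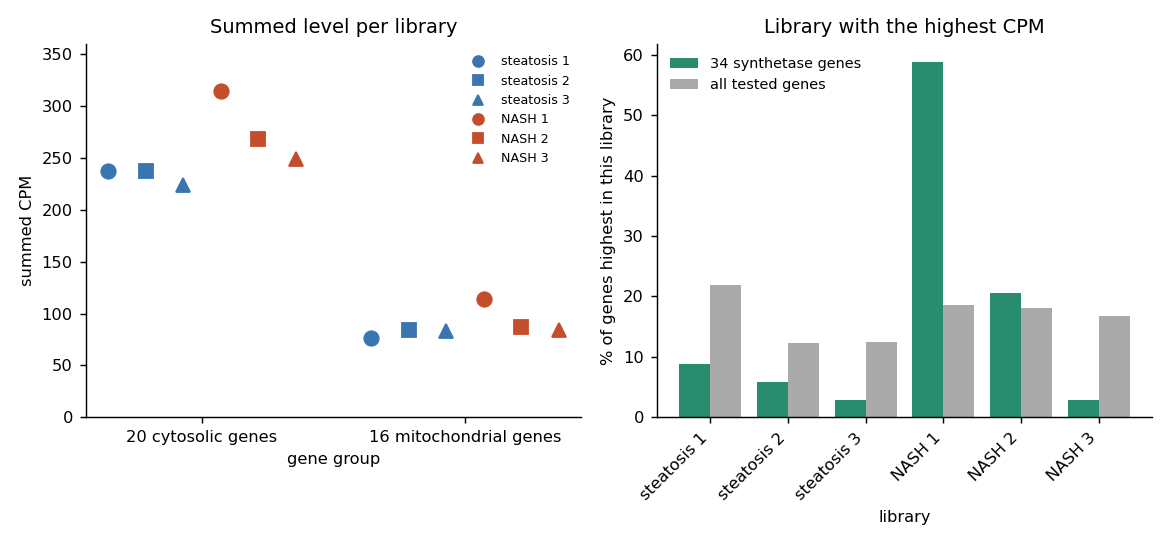
Left, summed CPM of the 20 cytosolic and 16 mitochondrial synthetase genes in each library. Right, the percentage of the 34 tested synthetase genes (green) and of all tested genes (grey) that had their highest CPM in a given library, with NASH 1 at 58.8% and 18.5%.

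Of the 13 cytosolic synthetase genes known as ATF4 targets (Aars, Cars, Eprs, Gars, Iars, Lars, Mars, Nars, Sars, Tars, Vars, Wars and Yars), 1 rose, 0 fell and 12 did not pass, with 12 of 13 estimates above 0 and a median log2 fold change of 0.28. Over all tested genes 1.49% were called higher, 50.6% stood above 0 and the median was 0.01. Of the 7 others (Dars, Farsa, Farsb, Hars, Kars, Qars and Rars) 0 passed by edgeR, DESeq2 or limma-voom, 1 had an unadjusted p under 0.05, 3 stood above 0 and the median was -0.03. With upper-quartile factors and with library sizes of the other genes that last median was 0.01 and 0.08, and without both libraries rich in reads like ribosomal RNA the medians of these lists were 0.37 and 0.16. The difference between the lists was not tested. Without NASH 1 they were 0.18 and 0.01, with 10 of 13 and 4 of 7 estimates above 0. The median of the 13 was 0.42 without steatosis 1 and 0.43 without NASH 3. The 14 tested mitochondrial genes, which are not on the list of ATF4 targets, had a median of 0.24 with 10 above 0. A lean above 0 was thus not particular to that list.

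Of the wider set of 17 ATF4-related genes, 14 were tested. The only one called by edgeR was Asns, which makes asparagine, with 0, 2 and 1 counts under steatosis against 13, 40 and 10 under NASH. It passed the filter on low counts through its NASH libraries alone, so its call says nothing about the set. The median log2 fold change of the 14 was 0.74, against 0.01 over all genes, but 0.40 without NASH 2 and 0.39 over the 11 genes, Asns not among them, that a stricter filter kept. Atf4 itself was at 32.4, 26.0 and 28.8 CPM in steatosis and 33.5, 29.4 and 17.4 CPM in NASH, with overlapping groups. Its estimate by edgeR was -0.12 on the log2 scale, with an SE of 0.25 and an adjusted p of 0.826. Atf5, a related factor, was at 20.7, 21.5 and 14.5 CPM in steatosis and 41.1, 37.1 and 26.5 CPM in NASH, without overlap. It did not pass (0.89 on the log2 scale, adjusted p = 0.0594 by edgeR). With the stricter filter 8 of 11 estimates stood above 0. Of the 14 estimates 11, Asns among them, stood above 0, against 50.6% of all tested genes, and 3 lay below 0. Those were Atf4, Sesn2 at -0.55 and Atf3 at -1.35 (edgeR adjusted p = 0.548 for Sesn2 and 0.199 for Atf3), with overlapping groups.

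Of 21 listed genes whose products work beside the synthetases 19 were tested, of which 0 rose and 1 fell by edgeR, close to the 1.49% and 3.33% of all tested genes called higher and lower. Estimates above 0 numbered 5 of 19, and 7 of 19 with upper-quartile factors or library sizes of the other genes, where the share over all genes was 50.6% with TMM factors. The median log2 fold change was -0.26, and -0.15 without NASH 2. The gene that fell was Gatb, a subunit of the enzyme that turns mischarged glutamyl-tRNA into glutaminyl-tRNA in mitochondria, which have no glutaminyl-tRNA synthetase of their own. Gatb was at 9.48, 6.70 and 7.52 CPM in steatosis and 4.37, 4.08 and 3.81 CPM in NASH (-0.95 on the log2 scale with an SE of 0.21, adjusted p = 0.0324 by edgeR). The Gatb call was lost when any 1 library was left out (edgeR adjusted p = 0.0556 to 0.118). The other subunits, Qrsl1 and Gatc, had log2 fold changes of 0.51 and -0.03 and did not pass.

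Tufm, the elongation factor that brings charged transfer RNA to the mitochondrial ribosome, was at 3.26, 1.80 and 1.93 CPM in steatosis and 0.833, 0.736 and 1.09 CPM in NASH. Its groups did not overlap, and its log2 fold change of -1.39 (SE 0.36) did not pass, with an edgeR adjusted p of 0.0532. DESeq2 called it (adjusted p = 0.0491). In the cytosol the same work is done by Eef1a1, at -0.40 on the log2 scale (adjusted p = 0.334 by edgeR), while Xpot, which exports transfer RNA from the nucleus, was at 9.78, 10.8 and 12.9 CPM in steatosis and 13.5, 15.98 and 14.96 CPM in NASH (0.40 on the log2 scale, adjusted p = 0.223 by edgeR).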

How the data were processed

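RNA sequencing of 6 mouse liver samples was analysed from the deposited counts, whole numbers of reads per Ensembl gene that the authors did not normalize. The submitters' processing notes name TopHat2, HTSeq and mm10 (GRCm38). No source used here gives the annotation release or the strand setting. Reads of the 14 synthetase genes that share exon positions with a gene on the opposite strand therefore could not be told apart. Aars also shares exon positions with Exosc6 on its own strand, where a strand setting would not help. Symbols matched 37607 of 39179 identifiers, and coordinates are from GENCODE M21 (GRCm38). Transcript length is that of the longest APPRIS principal transcript. Genes passing edgeR's default filter (R 4.3.3, edgeR 4.0.16) were scaled by TMM factors (0.79 to 1.5) and tested by its quasi-likelihood test. The SE was taken from the fold change and the F statistic, an approximation. The fit was tested on simulated data, where it recovered 27% of 100 changes of 2-fold and 97% of 100 changes of 4-fold. A gene that did not pass may therefore still differ by an amount of this smaller size or less. Alternatives used DESeq2 1.42.0, limma-voom 3.58.1, other factors, other filters, a block and left-out libraries. The genes and lists were chosen with earlier results of these data known. One gene and a stretch of promoter are not reported here. The other 35 genes are named, with library values for those with an unadjusted p under 0.05, and for the mitochondrial partner of a called gene. Library values of Aars, Mars, Ddit3, Tars2, Ears2, Atf4, Atf5, Xpot, Tufm, Yars2 and the genes not tested were chosen after they were seen. The labels do not state separate animals outright, so p-values measure the spread between these samples. The hepatocyte marker Tf matched no symbol.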

Additional observations from a re-analysis of the deposited data

How the results depend on the processing

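Of 34 tested synthetase genes, 27 kept the sign of their log2 fold change in all 15 alternatives, and Hars, Mars, Nars, Nars2, Rars2, Wars2 and Yars did not. DESeq2 called 858 genes in all against 548 by edgeR. Limma-voom called 0 synthetase genes higher (Cars, adjusted p = 0.0502). With no filter on low counts 2 synthetase genes were higher (Cars and Cars2), 1 was lower (Dars) and 1447 genes were called in all. Without both libraries rich in reads like ribosomal RNA, 0 synthetase genes were higher and 36 genes were called in all. With 1 library left out, 0 synthetase genes were higher or lower in each of the 6 fits, between 114 and 468 genes were called in all, and the medians ranged from 0.11 to 0.29 (cytosolic) and 0.14 to 0.36 (mitochondrial). These fits also have fewer libraries. With library sizes of the other genes and no TMM, the median of all genes moved from 0.01 to 0.12, and relative to it the cytosolic and mitochondrial medians were 0.24 and 0.23. In that scaling Gatb was no longer called (edgeR adjusted p = 0.0554). Same-numbered libraries did not deviate together (correlations of 0.03, -0.02 and 0.07). No pairing by number was seen, though this check cannot exclude one. With the replicate number as a block 1 synthetase gene was higher, 0 were lower and 466 genes were called in all. Depth limits the low genes: Yars2 had 5 to 46 counts per library, and Pars2 and Mars2 at most 14.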
